A study of Rattus norvegicus with 20 samples.

Results

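Calcium cycling by the sarcoplasmic reticulum was followed in the rat right ventricle through 9 genes: Atp2a2 and Pln, which set calcium uptake, S100a1, Ryr2, Trdn, Casq2, Hrc and Jph2, which belong to or act on the release site, and Slc8a1, which exports calcium across the surface membrane. They were found by symbol among the 18282 RefSeq transcript IDs, with 17297 symbols, of the deposited table of normalized counts (reads divided by a size factor for each library), and the ID with the highest mean stood for each gene. Reads were found for 8 of the 9. Slc8a1, the sodium-calcium exchanger, had 9 IDs, and each was listed at 0 in all 19 libraries, so it could not be compared.

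Total RNA was sequenced from right ventricles of Wistar rats, an outbred stock. The groups were pulmonary banding at 4 weeks after surgery (age 7 weeks, n = 5), sham operation at 4 weeks (age 7 weeks, n = 5), pulmonary banding at 8 weeks (age 11 weeks, n = 4) and sham operation at 8 weeks (age 11 weeks, n = 5). A band on the pulmonary artery raises the pressure against which the right ventricle works, and the labels call the banded tissue pressure overloaded and the sham tissue healthy. They give no genotype, drug or sex, no degree of narrowing, and no measure of heart function. Replicate 2 of banding at 8 weeks was not analysed here. Time after surgery and age cannot be told apart in this design, and nothing states that the libraries came from separate animals or whether ventricles were pooled, so p-values measure the spread between these libraries, which may be technical. Below, each banded or sham ventricle means 1 library. The recovered depth ran from 2.70 to 8.54 M reads per library. Libraries differed in Myl7, a transcript of atrial muscle, from 24.7 to 17580 normalized counts. The limit of 1000 used here does not mark a clear gap. Replicate 3 of banding at 4 weeks had 743 and replicate 2 of sham at 8 weeks had 1006. Myl7 was above 1000 in replicate 2 of banding at 4 weeks, replicate 3 of banding at 8 weeks, replicates 1 and 3 of sham at 4 weeks and replicates 1, 2 and 5 of sham at 8 weeks. The part of atrial RNA in the results was not tested, and values without these 7 libraries are given where a call changes.

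In each heartbeat, calcium that enters through L-type channels opens ryanodine receptors in the sarcoplasmic reticulum, and the released calcium starts contraction. The muscle relaxes when the pump SERCA2, encoded by Atp2a2, returns calcium to the reticulum and the exchanger moves the rest out of the cell. Phospholamban, encoded by Pln, inhibits SERCA2 until it is phosphorylated. Inside the reticulum calsequestrin binds calcium, and triadin ties it to the ryanodine receptor, while junctophilin holds the reticulum close to the surface membrane. Lower SERCA2 is a well known feature of failing hearts.

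The promoters of 4 members are shown, since 3 of these genes (Atp2a2, Pln and Trdn) were lower in every banded library than in every sham library at 8 weeks and the fourth, the release channel gene Ryr2, was not called. The sequences are RefSeq's, build GRCr8, from 250 bases before to 50 bases after the start of the gene, and are given 5′ to 3′ on the strand of the gene. Capitals mark matches on either strand to GGGCGG, the core of the site of Sp1-type factors, or to CANNTG, the E-box. Atp2a2 lies at chr12:39733269-39733568 on the plus strand, Pln at chr20:33172244-33172543 on the plus strand, Trdn at chr1:26229550-26229849 on the minus strand and Ryr2 at chr17:63081277-63081576 on the plus strand.
Atp2a2: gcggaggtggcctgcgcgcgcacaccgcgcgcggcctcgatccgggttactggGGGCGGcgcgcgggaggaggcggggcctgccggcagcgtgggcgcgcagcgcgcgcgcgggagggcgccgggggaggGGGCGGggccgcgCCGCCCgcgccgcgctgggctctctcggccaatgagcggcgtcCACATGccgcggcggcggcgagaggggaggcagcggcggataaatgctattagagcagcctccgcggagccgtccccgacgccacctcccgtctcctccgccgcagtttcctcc
Pln: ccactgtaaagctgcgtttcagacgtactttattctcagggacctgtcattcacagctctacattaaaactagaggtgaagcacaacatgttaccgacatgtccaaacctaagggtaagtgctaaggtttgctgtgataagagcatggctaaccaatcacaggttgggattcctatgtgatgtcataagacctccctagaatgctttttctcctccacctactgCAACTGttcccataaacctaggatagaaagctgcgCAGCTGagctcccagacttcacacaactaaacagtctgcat
Trdn: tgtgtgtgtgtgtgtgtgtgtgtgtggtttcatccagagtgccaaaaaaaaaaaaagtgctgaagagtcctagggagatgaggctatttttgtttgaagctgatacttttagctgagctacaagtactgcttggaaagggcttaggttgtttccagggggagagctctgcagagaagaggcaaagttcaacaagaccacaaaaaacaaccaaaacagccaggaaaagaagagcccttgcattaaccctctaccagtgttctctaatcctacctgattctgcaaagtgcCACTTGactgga
Ryr2: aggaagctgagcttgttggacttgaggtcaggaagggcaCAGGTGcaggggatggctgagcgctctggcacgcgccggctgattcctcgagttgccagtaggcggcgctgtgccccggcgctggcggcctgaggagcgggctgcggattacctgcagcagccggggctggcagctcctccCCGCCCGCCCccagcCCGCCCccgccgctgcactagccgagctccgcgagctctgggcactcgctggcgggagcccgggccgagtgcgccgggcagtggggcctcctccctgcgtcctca

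The 4 windows differed in base composition. Guanine and cytosine made up 79% of the Atp2a2 window and 73% of the Ryr2 window, against 45% for Pln and 44.3% for Trdn, with a median of 51.7% over the 33469 promoters of the table. GGGCGG had 3 matches in Atp2a2 and 3 in Ryr2, of which the pair farthest upstream in Ryr2 overlap by 2 bases, and none in the other windows. It occurs in 33.1% of all promoters. CANNTG had 1 match in Atp2a2, 2 in Pln, 1 in Trdn and 1 in Ryr2, and occurs in 72.1% of promoters. None of the 8 member windows in the table matched TATAAA (14.2% of promoters) or AAGGTCA (4.61%, a nuclear receptor element). Nor was there a match for AGATAA (11.6%, 1 form of GATA-type site) or for 1 palindromic MEF2-type form with free middle bases (3.84%). Other forms of GATA-type and MEF2-type sites were not searched, so these windows may hold them. The data hold no measurement of binding at these windows.

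Banding was followed by lower levels of some members of the uptake side and of the release site. Among them, Atp2a2 was measured only through a non-coding ID. At 4 weeks, 2 of the 8 measured members fell, Trdn and Atp2a2, and 0 rose (limma, Benjamini-Hochberg adjusted p under 0.05 over all 10926 IDs tested). All genes tested were called at a rate of 19.1% in this comparison, with 9.27% of all genes higher and 9.82% lower. At 8 weeks, 5 of 8 fell, Trdn, Atp2a2, Pln, Hrc and S100a1, and 0 rose, against 33.4% of all genes called, 16.7% higher and 16.6% lower. Ryr2, Casq2 and Jph2 were not called at either time in this model. The median log2 fold change of the 8 members was −0.29 at 4 weeks and −0.52 at 8 weeks, beside medians of 0.00 and 0.01 over all genes tested. No overlap between banding and sham libraries was found for 2 members at 4 weeks and for 3 at 8 weeks, all of them lower in banding. Of all genes, 13.3% were without overlap at 4 weeks (6.75% lower) and 25.2% at 8 weeks (12.7% lower). In bulk tissue, fewer cardiomyocytes and less RNA per cardiomyocyte cannot be told apart.

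**Figure D1:**
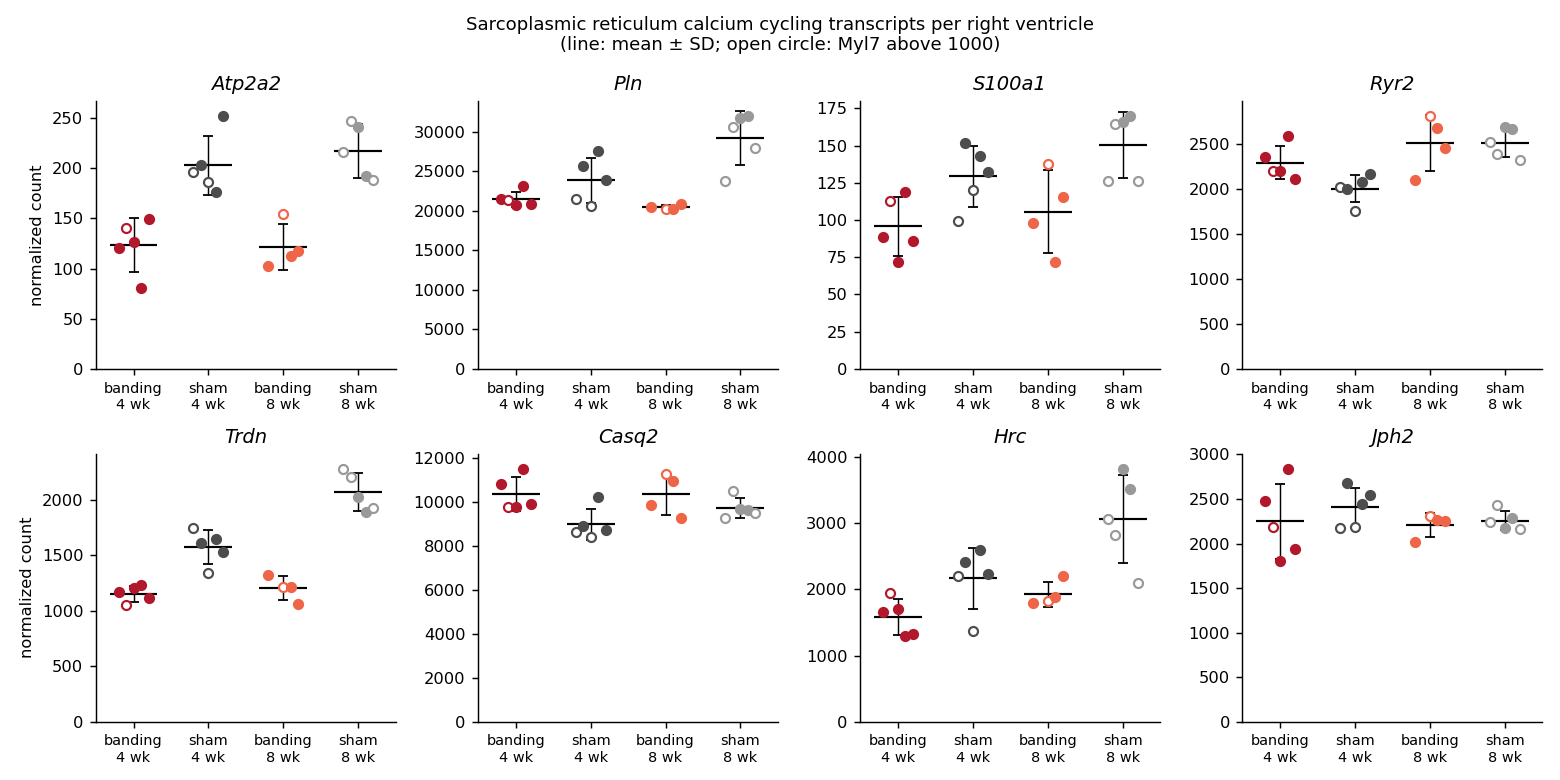
Normalized counts of the 8 measured genes in each right ventricle library (vertical axes from 0) in banding and sham at 4 and 8 weeks. Each circle is 1 library, lines give mean ± SD, and open circles are the 7 libraries with Myl7 above 1000. Atp2a2 and Trdn of banded ventricles lie below all sham values at both times, and Pln does so at 8 weeks.

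Atp2a2 encodes the SERCA2 pump. Its reads, 3321 over all libraries, sat on 1 non-coding ID (NR_027839), while both coding IDs were listed at 0. The values and tests below are of that ID only and are uncertain. They may stand for a small part of the gene's RNA, and a fall of the coding transcripts was not measured. In the table, IDs of genes with several IDs reached a mean of 10 in 12.8% of cases and other IDs in 61.6%. At 4 weeks the banded ventricles had 120.2, 140.2, 126, 80.6 and 149.8 normalized counts and the sham ventricles 197, 204, 186, 177 and 252. The groups did not overlap, and replicate 4 of banding was the lowest library of all. The fall was 0.73 ± 0.15 on the log2 scale (log2 of the normalized count plus 1, ± SE; limma, adjusted p = 0.000984). At 8 weeks the values were 102, 155, 112 and 117 in banding and 216, 247, 241, 192 and 188 in sham. These groups were again apart, and Atp2a2 fell by 0.84 ± 0.16 (limma, adjusted p = 0.000228). Both falls kept an adjusted p of at most 0.00441 under every alternative run, each library left out in turn included.

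Pln encodes phospholamban, the brake on SERCA2. At 8 weeks the 4 banded ventricles held 20477, 20305, 20269 and 20887 normalized counts, and the 5 sham ventricles held 23824, 30628, 31720.0, 32021 and 27905. Every banded value lay below every sham value, and the banded values were close together, with a coefficient of variation of 1.38% against 11.7% in sham. The lowest sham values were those of replicates 1 and 5, whose Myl7 was above 1000. The cause of the difference in spread was not tested. Pln fell by 0.50 ± 0.10 on the log2 scale at 8 weeks (limma, adjusted p = 0.000269). At 4 weeks there were 21464, 21404, 20702, 23096 and 20841 normalized counts in banding and 21506, 25669.5, 20684, 27562 and 23966 in sham. The groups overlapped, and the lowest sham values were those of replicates 1 and 3, which are among the Myl7-rich libraries. The log2 difference at 4 weeks was −0.14 ± 0.09 (limma, adjusted p = 0.297, 95% interval −0.33 to 0.04). Pln was called lower at 4 weeks without the 7 libraries with Myl7 above 1000 (−0.26, limma, adjusted p = 0.0489), with log2 Myl7 as a covariate (−0.19, limma, adjusted p = 0.0493) and after quantile normalization (−0.38, limma, adjusted p = 0.000152), and the adjusted p ran from 0.000152 to 0.548 over all alternatives. In GRCr8, Pln lies inside the span of Cep85l, and whether reads were counted by strand was not given in the sources used here.

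S100a1 encodes a small calcium sensor that acts on SERCA2 and on the ryanodine receptor. At 8 weeks its normalized counts were 98.1, 138, 71.5 and 116 in banding and 126, 164, 166, 169.9 and 126 in sham. One banded ventricle, replicate 3, lay above the 2 lowest sham ventricles, so the groups overlapped. S100a1 fell by 0.53 ± 0.18 on the log2 scale (limma, adjusted p = 0.0238). This call rested on single libraries: the adjusted p in limma was 0.0535 without banding replicate 1, 0.122 without banding replicate 4 (log2 difference −0.36), 0.0536 without sham replicate 2, 0.0540 without sham replicate 3 and 0.0564 without sham replicate 4, with a range of 0.00787 to 0.122 over all alternatives. At 4 weeks the averages were 95.8 ± 19.6 in banding and 129 ± 20.6 in sham (SD, n = 5 each), a difference of −0.44 ± 0.17 (limma, adjusted p = 0.0714). It was called lower at 4 weeks without replicate 4 of banding at 4 weeks, replicate 4 of banding at 8 weeks or replicate 1 of sham at 4 weeks, and without the Myl7-rich libraries (−0.65, limma, adjusted p = 0.0162; 0.0162 to 0.19 over all alternatives).

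Trdn encodes triadin, the anchor between calsequestrin and the ryanodine receptor, and had the smallest p of the 8 members at both times. At 4 weeks the banded ventricles held 1169, 1054, 1205, 1229 and 1111 normalized counts and the sham ventricles 1746, 1612, 1339, 1642 and 1525. At 8 weeks the values were 1318, 1212, 1216 and 1056 in banding and 2278, 2205, 2028, 1887 and 1927 in sham. Every banded ventricle lay below every sham ventricle at its time. Across both times the highest of the 9 banded libraries (1318) lay just below the lowest of the 10 sham libraries (1339). This was not particular to Trdn. The non-coding ID of Atp2a2 was at most 155 in banding and at least 177 in sham. The share of all genes apart in this way across both times was not counted. Trdn fell by 0.44 ± 0.08 on the log2 scale at 4 weeks (limma, adjusted p = 0.000224) and by 0.78 ± 0.08 at 8 weeks (limma, adjusted p = 1.57e-07). On the linear scale it fell by 26.5% and by 41.9%. Its rank by p among the 10926 IDs was 385 at 4 weeks and 159 at 8 weeks.

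Hrc encodes the histidine-rich calcium binding protein of the reticulum lumen, a partner of triadin and SERCA2. At 8 weeks it had 1798, 1826, 1877 and 2201 normalized counts in banding and 3060.0, 2824, 3819.8, 3509.5 and 2099 in sham. The lowest sham library, replicate 5, lay below the highest banded one, and the other 4 sham libraries lay above all banded ones. Hrc fell by 0.64 ± 0.17 on the log2 scale (limma, adjusted p = 0.00451), and the fall was 0.91 without the Myl7-rich libraries (limma, adjusted p = 7.19e-05; 7.19e-05 to 0.0164 over all alternatives). At 4 weeks the values were 1660.2, 1939.8, 1699, 1295 and 1328 in banding and 2198, 2417, 1377, 2589 and 2238 in sham. Sham replicate 3, which is Myl7-rich, was low among the sham libraries, and the difference was −0.43 ± 0.16 (limma, adjusted p = 0.0566). Hrc was called lower at 4 weeks without that library (−0.59, limma, adjusted p = 0.00354), without banding replicate 2 (−0.51, limma, adjusted p = 0.0346), without the Myl7-rich libraries (−0.70, limma, adjusted p = 0.000221), when replicate 3 or 5 of sham at 8 weeks was left out, and with edgeR and DESeq2 among others, with 0.000221 to 0.142 over all alternatives. In the authors' deposited table the log2 fold change of Hrc at 4 weeks was −0.42, with an adjusted p of 0.0248.

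Casq2 encodes cardiac calsequestrin, the main calcium store of the reticulum. Its banded ventricles had 10811, 9762, 9770.2, 11500.5 and 9890.0 normalized counts at 4 weeks, and the sham ventricles had 8622, 8919, 8407, 10202 and 8714. Only sham replicate 4 reached into the banded range. The difference was 0.21 ± 0.07 on the log2 scale (limma, adjusted p = 0.0508). Casq2 was called higher in banding without that library (0.25, limma, adjusted p = 0.0173), when replicate 3 or 5 of banding at 8 weeks was left out, and, among other settings, with DESeq2 on recovered reads (0.21, adjusted p = 0.0196), and the adjusted p ran from 0.0173 to 0.42 over all alternatives. The authors' deposited table gave 0.20 with an adjusted p of 0.0187. At 8 weeks Casq2 averaged 10336 ± 922 in banding (SD, n = 4) and 9716 ± 470.0 in sham (SD, n = 5), a difference of 0.09 ± 0.08 (limma, adjusted p = 0.423, 95% interval −0.07 to 0.25). After quantile normalization Casq2 was called higher at 8 weeks (0.20, limma, adjusted p = 0.0450; 0.045 to 0.769 over all alternatives), while its difference at 4 weeks was 0.09 (limma, adjusted p = 0.420).

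Ryr2 encodes the cardiac ryanodine receptor, the release channel itself. At 8 weeks the banded ventricles had 2097, 2810.4, 2677 and 2453 normalized counts and the sham ventricles 2519, 2386, 2688, 2663 and 2316. The ranges lay over each other, and the difference of −0.01 ± 0.08 had a 95% interval of −0.18 to 0.16 (limma, adjusted p = 0.947). At 4 weeks the averages were 2292 ± 187 in banding and 2003 ± 151 in sham (SD, n = 5 each), a difference of 0.19 ± 0.08 (limma, adjusted p = 0.0912). A second coding ID of Ryr2 had a mean of 19.9 and was not used. Jph2 encodes junctophilin, which bridges the reticulum and the surface membrane. It averaged 2249.6 ± 418 in banding and 2406 ± 223 in sham at 4 weeks (SD, n = 5 each), and 2209.9 ± 131 in banding (n = 4) and 2259 ± 107 in sham (n = 5) at 8 weeks. Its log2 differences were −0.11 ± 0.09 (95% interval −0.31 to 0.08) and −0.03 ± 0.10 (−0.24 to 0.18), and neither was called.

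**Figure D2:**
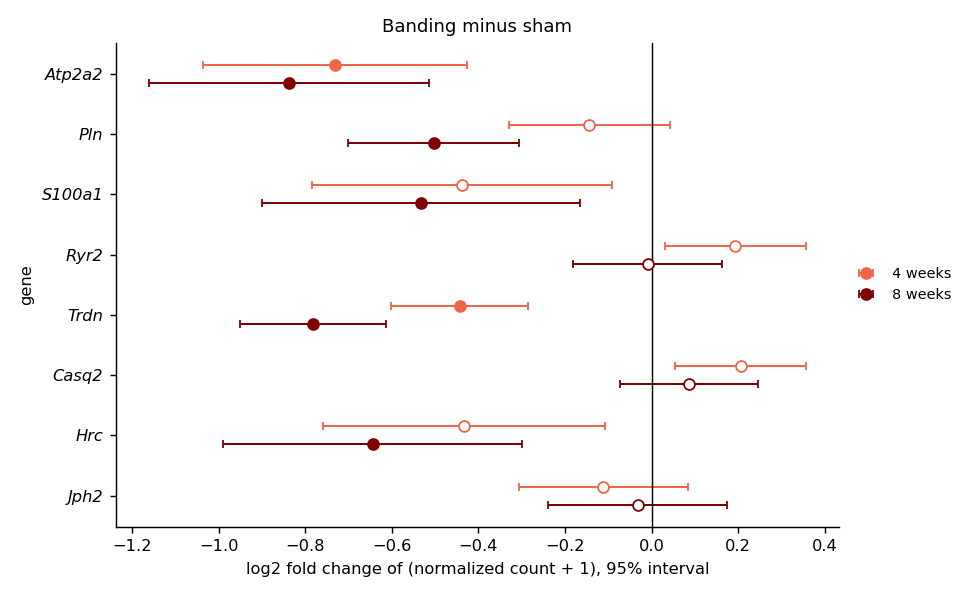
Log2 fold change of banding over sham for each gene at 4 weeks and at 8 weeks, with 95% intervals (horizontal axis, log2 of normalized count + 1); filled circles were called by limma at an adjusted p under 0.05. The filled circles, 2 at 4 weeks and 5 at 8 weeks, all lie below 0, and Ryr2, Casq2 and Jph2 have open circles at both times.

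Over time 2 members rose in sham ventricles, Trdn and Ryr2, and none was called in banded ventricles. From 4 to 8 weeks after the sham operation, Trdn rose by 0.39 ± 0.08 on the log2 scale (limma, adjusted p = 0.00364) and Ryr2 by 0.33 ± 0.08 (limma, adjusted p = 0.0149), with no overlap between the times for either. That is 2 of 8 members called higher, beside 6.53% of all genes called and 2.67% called higher, and 6.47% of all genes were without overlap (3.12% higher). Pln (0.29 ± 0.09, adjusted p = 0.0538) and Hrc (0.50 ± 0.16, adjusted p = 0.0557) were close to the limit in limma, and DESeq2 called both. Pln was called when replicate 2 or 4 of sham at 4 weeks or replicate 1 of sham at 8 weeks was left out, and Hrc when replicate 2 or 4 of sham at 4 weeks or replicate 5 of sham at 8 weeks was left out. Without the Myl7-rich libraries, which leave 3 sham ventricles at 4 weeks and 2 at 8 weeks, Hrc rose by 0.60 (limma, adjusted p = 0.0227; 0.0149 to 0.166 over all alternatives). Trdn and Ryr2 were then not called, with 0.30 for Trdn (limma, adjusted p = 0.147; 7.61e-05 to 0.147 over all alternatives) and 0.36 for Ryr2 (limma, adjusted p = 0.105; 0.0021 to 0.105). The Pln difference was 0.31 without them (limma, adjusted p = 0.156) and 0.067 after quantile normalization (limma, adjusted p = 0.634), and its adjusted p ran from 0.00469 to 0.634 over all alternatives.

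In the banded group 0 of 8 members were called between 8 and 4 weeks by limma, 0 had an unadjusted p under 0.05, and 0 were called by edgeR or DESeq2. No member was without overlap there. Of all genes, 1.14% were called and 5.27% were without overlap. The differences ran from −0.07 ± 0.10 for Pln to 0.29 ± 0.17 for Hrc. The difference between the banding effects at 8 and at 4 weeks, which is also that between the changes over time in banding and in sham, was tested directly. None of the 8 members passed (limma; 0.0275% of all genes did), 2 had an unadjusted p under 0.05, and edgeR and DESeq2 called 0. Those 2 were Pln, with −0.36 ± 0.13 (adjusted p = 0.28 in limma), and Trdn, with −0.34 ± 0.11 (adjusted p = 0.231 in limma). With log2 Myl7 as a covariate Pln was called (−0.42, limma, adjusted p = 0.0328; 0.0328 to 0.471 over all alternatives). The sizes of the falls at 8 weeks were thus not shown to differ from those at 4 weeks.

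**Figure D3:**
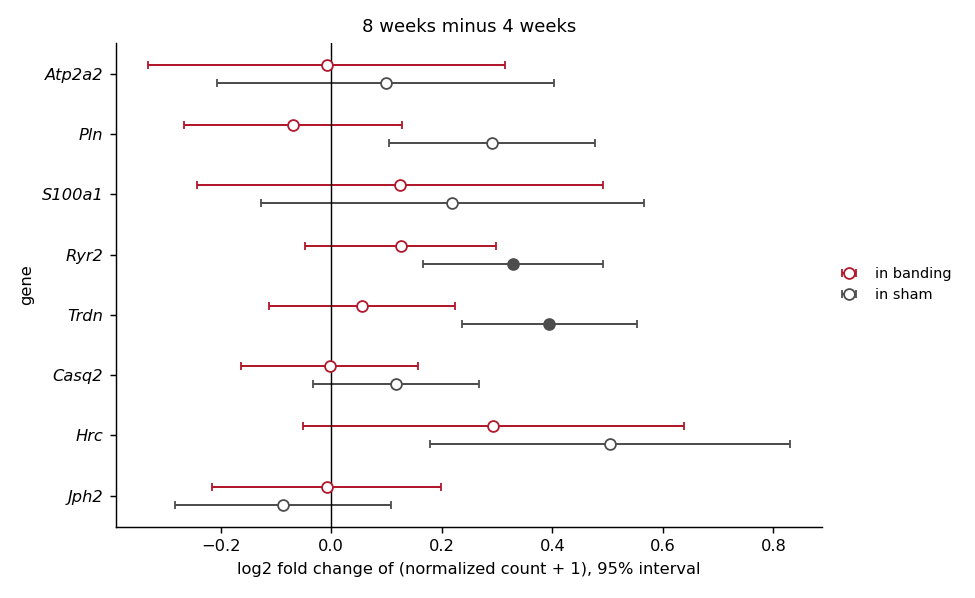
Log2 fold change of 8 weeks over 4 weeks after surgery for each gene in banding and in sham, with 95% intervals (horizontal axis, log2 of normalized count + 1); filled circles were called by limma. Only Trdn and Ryr2 in sham are filled, at 0.39 and 0.33.

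The order of the group means placed the members in different patterns. For Trdn it was sham at 8 weeks, sham at 4 weeks, banding at 8 weeks and banding at 4 weeks from high to low, and only the last pair overlapped. S100a1 and Hrc had the same order, with overlap between each pair of neighbours. For Atp2a2 and Pln both banded groups also stood below both sham groups, with a gap between neighbours only for Atp2a2, between sham and banding at 4 weeks. In Casq2 both banded groups stood above both sham groups and all neighbours overlapped, and in Ryr2 the 8-week groups stood above the 4-week groups. Neighbouring groups overlapped in Ryr2 and in Jph2.

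Ratios of members within a library depend little on its size factor. The log2 ratio of Pln to Atp2a2 was 7.47, 7.24, 7.34, 8.14 and 7.11 in banding at 4 weeks and 6.77, 6.97, 6.79, 7.28 and 6.57 in sham. The mean difference, 0.59 ± 0.22 (SE, banding minus sham), had p = 0.0238 in a 2-sided exact permutation test, and p = 0.0952 after adjustment over the 4 ratio tests. At 8 weeks the difference was 0.33 ± 0.17 (exact permutation p = 0.0794, adjusted 0.159). The smallest p these designs allow is 0.00794 in the exact permutation test. The ratio of Casq2 to Ryr2 differed by 0.01 ± 0.05 at 4 weeks (exact permutation p = 0.849, adjusted 0.849) and by 0.10 ± 0.09 at 8 weeks (p = 0.294, adjusted 0.392, same exact test). The Pln to Atp2a2 ratio rests on the uncertain Atp2a2 ID.

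The level of Trdn relative to that of Casq2 was lower in banding. The log2 ratio of Trdn to Casq2, chosen after the values were seen and therefore not tested, was −3.21, −3.21, −3.02, −3.22 and −3.15 in banding at 4 weeks and −2.30, −2.47, −2.65, −2.63 and −2.51 in sham at 4 weeks. At 8 weeks it was −2.90, −3.21, −3.17 and −3.13 in banding and −2.03, −2.25, −2.26, −2.35 and −2.30 in sham. All 9 banded libraries lay below all 10 sham libraries. The same held for Trdn alone, so this is not a separate result. The group means were −3.16 ± 0.09 in banding and −2.51 ± 0.14 in sham at 4 weeks, and −3.10 ± 0.14 in banding and −2.24 ± 0.12 in sham at 8 weeks (SD).

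**Figure D4:**
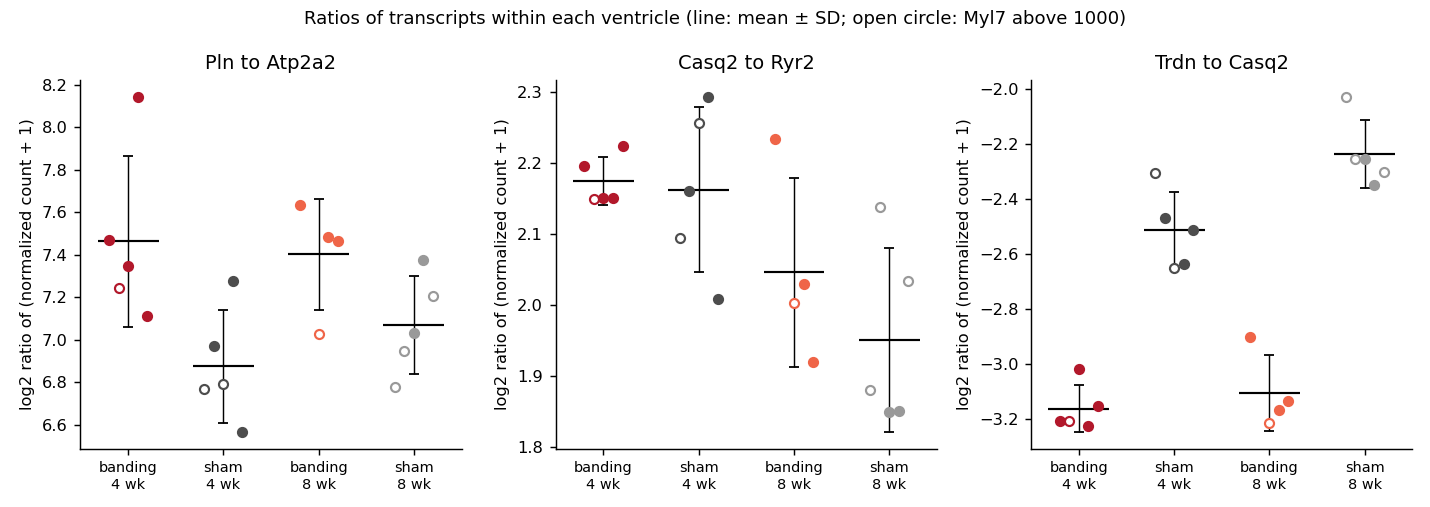
Log2 ratios of Pln to Atp2a2, Casq2 to Ryr2 and Trdn to Casq2 in each library (vertical axes, log2 ratio of normalized count + 1, scaled separately). Lines give mean ± SD, and open circles are the 7 libraries with Myl7 above 1000. The ratio of Trdn to Casq2 is at most −2.90 in banding and at least −2.65 in sham.

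A wider list of 76 other calcium handling genes held 67 with reads, of which 57 passed the minimum of 10 normalized counts in 4 libraries. At 4 weeks 7 of the 57 rose and 6 fell in banding, and at 8 weeks 9 rose and 10 fell (limma). These shares are near the 19.1% and 33.4% of all genes called, and the counts of the sublists below are to be read beside the same shares. The median log2 fold change of the 57 was 0.05 at 4 weeks and −0.02 at 8 weeks.

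Among release and junction partners, 2 rose and 2 fell of 11 tested at 4 weeks, and 3 rose and 2 fell at 8 weeks. Casq1, the skeletal muscle form of calsequestrin, averaged 1104 ± 390.4 normalized counts in banding and 379 ± 94.1 in sham at 4 weeks, and rose by 1.50 ± 0.23 on the log2 scale (limma, adjusted p = 5.71e-05). At 8 weeks it averaged 793 ± 333 in banding and 283 ± 60.6 in sham, a rise of 1.44 ± 0.24 (limma, adjusted p = 8.28e-05). The banded and sham ventricles did not overlap at either time. The 4 skeletal muscle markers with reads summed to at most 19.4 normalized counts in any library. Tnnt3 had 13 IDs, all listed at 0 like those of Slc8a1, so its 0 may not mean absence. The part of skeletal muscle RNA was not tested. Fkbp1a, which encodes the ryanodine receptor binding protein FKBP12, rose by 0.40 ± 0.07 and 0.44 ± 0.08 at the 2 times. Tmem38a, which encodes a potassium channel of the reticulum membrane, fell by 0.30 ± 0.08 and 0.57 ± 0.09, and Calm2, a calmodulin gene, fell by 0.29 ± 0.09 at 4 weeks. Jph1 was not called at either time (0.15 ± 0.11 and 0.17 ± 0.11).

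Of the uptake pumps and small regulators, 0 of 5 tested were called at 4 weeks and 1 fell at 8 weeks. That gene was Hax1, whose protein binds phospholamban, with a fall of 0.50 ± 0.11. At 4 weeks limma, edgeR and DESeq2 called none of these 5, and 1, Atp2a1, had an unadjusted p under 0.05 in each. The other SERCA genes, Atp2a1 (−1.03 ± 0.43 and −0.98 ± 0.46) and Atp2a3 (0.09 ± 0.13 and 0.23 ± 0.13), were not called, and Atp2a1 averaged only 3.23 ± 1.6 normalized counts in banding and 8.06 ± 4.61 in sham at 4 weeks. Sln, which encodes the atrial SERCA inhibitor sarcolipin, ran from 5.86 to 137 in banding and from 2.20 to 786 in sham at 4 weeks, and was at least 82.2 in the Myl7-rich libraries and 94.1 in 1 other. Of surface pumps, exchangers and entry, 1 of 10 fell at 4 weeks, Stim1 (0.33 ± 0.10), a sensor of the calcium store, and 2 rose and 1 fell at 8 weeks. The list also holds Slc8b1, the mitochondrial exchanger, which rose by 0.76 ± 0.13 at 8 weeks (limma, adjusted p = 0.000128). Slc8a2 and Slc8a3, the paralogs of Slc8a1, were under the minimum, with group means of at most 5.19 normalized counts.

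Kinases, phosphatases and anchors act on phospholamban and the ryanodine receptor. Here 2 rose and 3 fell of 17 at 4 weeks, and 2 rose and 4 fell at 8 weeks, beside 19.1% and 33.4% of all genes called. Hspb6, a small heat shock protein of muscle, averaged 4170.2 ± 488 in banding and 1936 ± 387 in sham at 8 weeks, and rose by 0.98 ± 0.14 at 4 weeks and 1.12 ± 0.15 at 8 weeks. Ppp2ca, the catalytic subunit of phosphatase 2A, rose by 0.43 ± 0.09 and 0.43 ± 0.09. Among regulators of phosphatase 1, 2 fell: Ppp1r1a, its inhibitor 1, by 0.82 ± 0.17 and 0.95 ± 0.18, and Ppp1r3a, its targeting subunit in muscle, by 0.34 ± 0.06 and 0.59 ± 0.06. Prkaca, the catalytic subunit of protein kinase A, fell by 0.22 ± 0.06 and 0.39 ± 0.07. Of 5 chaperones of the reticulum lumen, Canx (calnexin, 0.19 ± 0.06) and Calu (calumenin, 0.30 ± 0.09) rose at 4 weeks. At 8 weeks Calu rose by 0.52 ± 0.10 and Canx by 0.15 ± 0.06, and Hspa5, the chaperone BiP, fell by 0.49 ± 0.09.

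**Figure D5:**
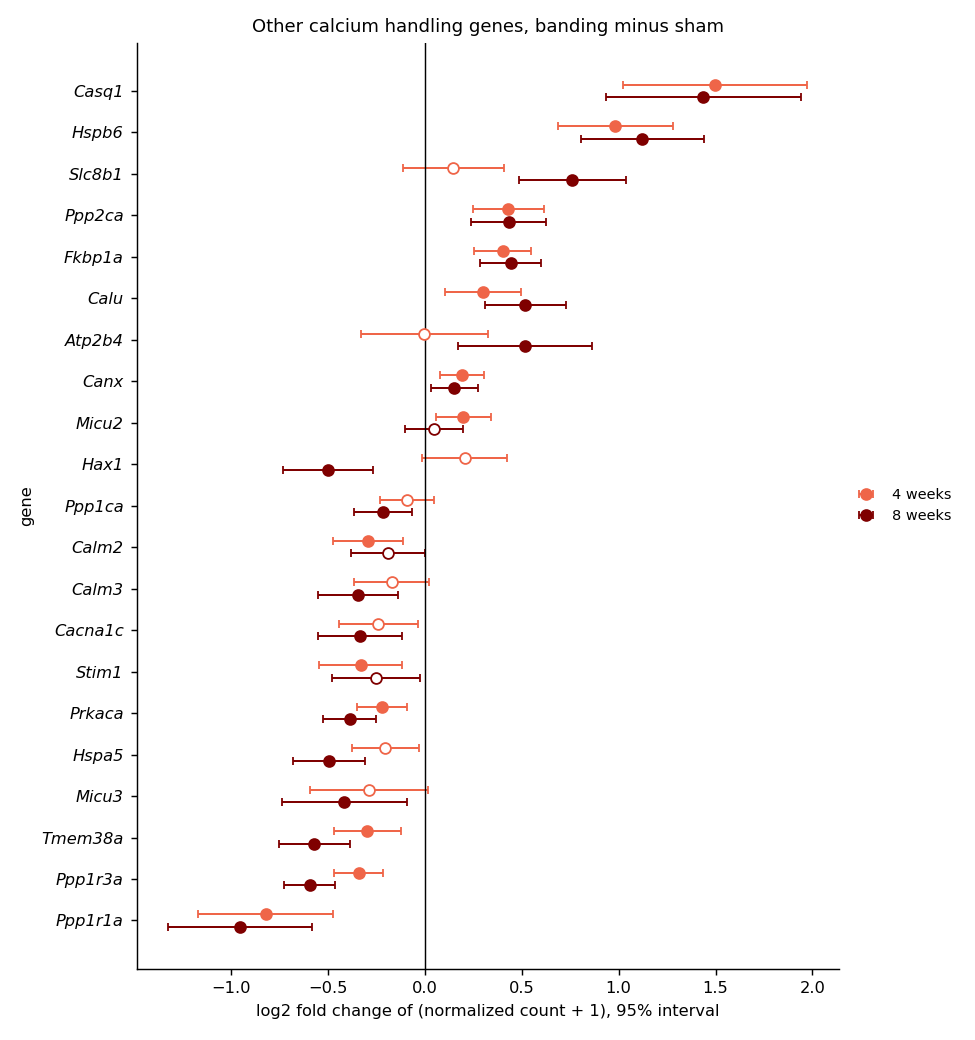
Log2 fold change of banding over sham at 4 and 8 weeks for 21 other calcium handling genes called at either time, with 95% intervals (horizontal axis, log2 of normalized count + 1); filled circles were called by limma. Casq1 and Hspb6 lie farthest to the right, at 1.50 and 0.98 at 4 weeks, and Ppp1r1a farthest to the left at both times.

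For each member, the tested genes with the most similar course over the 19 libraries were found by the root mean square difference of log2 values after each gene was centred on its own mean, a description only. Pln was nearest to Ppa2 (difference 0.07), Fkbp3 and Ube2b, and Trdn to Txlnb (0.12), Chpt1 and Ghr. The median difference from all genes was 0.34 for Pln and 0.44 for Trdn. Casq2 was nearest to Skp1 (0.06), Vcp and Rad23b, and Ryr2 to Dynll2 (0.09), Nrdc and Ppp1cb, the last a catalytic subunit of phosphatase 1. Jph2 was nearest to Actn2 (0.11), Camk2d and Grb14. The nearest genes of Atp2a2 were Reep1 (0.20), Osbpl6 and Hecw2, those of Hrc were Myo10 (0.21), Pdk2 and Chst15, and those of S100a1 were Fbxw8 (0.19), Pygm and Efnb3.

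All 7 ventricular cardiomyocyte markers had reads, and their summed normalized counts ran from 382610 to 447110 in banding and from 414830 to 558630 in sham at 4 weeks, and from 337960 to 388120 in banding and from 496710 to 575790 in sham at 8 weeks. Of these markers Myh6, the adult rodent myosin heavy chain, fell by 0.71 at 4 weeks and 1.30 at 8 weeks, and Tnni3, cardiac troponin I, by 0.46 and 0.84 (limma). Irx4, a ventricular transcription factor, rose at both times (0.72 and 0.39), and Actc1, cardiac actin, rose at 8 weeks (0.32). Not called were 4 of the 7 at 4 weeks and 3 at 8 weeks. Their median log2 fold change was −0.05 at 4 weeks and −0.18 at 8 weeks. Myh6 made up a large part of the sums. At 8 weeks it ran from 96548 to 115290 in banding and from 231950 to 289360 in sham. Some markers of several other cell types were called, beside 19.1% of all genes called at 4 weeks and 33.4% at 8 weeks. Of 5 macrophage markers 3 rose at 4 weeks and 4 at 8 weeks, with sums of 2001 to 2541 in banding and 1313 to 2462 in sham at 4 weeks, and 2087 to 2683 in banding and 1388 to 2064 in sham at 8 weeks. Of 5 smooth muscle and pericyte markers 3 rose at both times, and of 5 endothelial markers 1 rose at 4 weeks and 3 at 8 weeks. The smooth muscle and pericyte sums ran from 5286 to 6199.9 in banding and from 3999 to 11937 in sham at 4 weeks, where 1 or more sham libraries lay above all banded ones, and from 6063 to 6649 in banding and from 4060.1 to 5683 in sham at 8 weeks. The endothelial sums ran from 5798 to 6671 in banding and from 4735 to 5957 in sham at 4 weeks, and from 5185 to 6218 in banding and from 4212 to 5295 in sham at 8 weeks. Of 5 tested fibroblast markers 1 fell at each time, Pdgfra, by 0.76 at 4 weeks and 0.57 at 8 weeks, and the other 4 were not called. The 2 tested adipocyte markers had median differences of −0.88 at 4 weeks and −1.55 at 8 weeks, below 0 for both and not called. Of 5 atrial markers Nppa, a natriuretic peptide gene that ventricles also express, rose at both times (4.67 and 4.15), and the other 4 were not called. Of 3 red cell markers with reads 2 rose at 8 weeks, Hbb and Alas2, both by 1.74. The falls of Atp2a2 and Trdn at both times and of Pln, Hrc and S100a1 at 8 weeks were also called without the 7 Myl7-rich libraries. S100a1 then fell by 0.84 at 8 weeks (limma, adjusted p = 0.00787, and 0.00787 to 0.122 over all alternatives). That setting left only replicates 1, 4 and 5 of banding and replicates 3 and 4 of sham at 8 weeks. The part of the other cell types in these results was not tested.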

How the data were processed

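Values for 18282 RefSeq IDs in 19 libraries came from a sheet of normalized counts that the authors deposited, a signal in which the reads of a library are divided by its size factor. They also deposited 6 sheets of comparisons, each with a log2 fold change, a Wald score and raw and adjusted p-values for every ID, and their directions were set here from the group means. Per the labels' protocols, Trizol was used for isolation and TruSeq Ribo-Zero Gold for the libraries. STAR, DESeq2 and the build rn6 appear without versions or roles in the submitters' processing notes. Which program counted the reads, and whether by strand, is not given in the sources used here. In each library 100% of the positive deposited signal values were whole multiples of 1 step (tolerance 0.001), so reads could be recovered.

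The 10926 IDs with at least 10 normalized counts in at least 4 libraries were analysed on the scale log2(value + 1), in 1 limma model (version 3.58.1, R 4.3.3) of all 4 groups, 2-sided, with a trended empirical Bayes variance and Benjamini-Hochberg adjustment over all IDs (threshold 0.05). The scale understates changes of low genes. Alternatives included edgeR 4.0.16 and DESeq2 1.42.0 on recovered reads, pseudocounts of 0.5 and 5, other filters and scalings, a replicate block, a Myl7 covariate, and leaving out each library or the 7 libraries with Myl7 above 1000. The model was also run on simulated counts, with the same relative spread for all genes and changes only in banding at 4 weeks. Since the spread of real genes differs, that run does not show the error rates in these data. A planned ratio of Slc8a1 to Atp2a2 was not computed, since Slc8a1 was listed at 0. Levels of different genes were not compared, since transcript lengths were not used here. Of the IDs, 17359 took names from a GRCr8 table, and promoters came from RefSeq's GRCr8 table, which matched 8 of 9 members. The members and lists were chosen with earlier results of these data known. Named from the wider list were the 6 called genes with the smallest p per direction and banding comparison, and paralogs of members. For each member the 3 most similar genes were named, and other names were chosen after their values were seen. One gene of the wider list is counted but not reported here by name.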

Additional observations from a re-analysis of the deposited data

Results flagged for a closer look

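Each member was examined in each of the 4 groups for a library that stands apart from the rest of its group, 32 sets of values in all, and 1 was found. Casq2 in replicate 4 of sham at 4 weeks had 10202 normalized counts, and the other 4 libraries of that group ran from 8407 to 8919. Its gap to the nearest library was 0.715 of the range of the group. Chance alone marks about 1 in 20 such sets. The same library lay inside the range of the banded ventricles at 4 weeks.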

How the results depend on the processing

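Of the 40 results for single members in single comparisons, 20 kept their direction and their side of the threshold under all alternatives, among them the falls of Atp2a2 and Trdn at both times and of Pln and Hrc at 8 weeks. Atp2a2 and S100a1 had the fewest reads of the 8 members, and their banding effects had standard errors of 0.15 to 0.18, beside 0.16 and 0.17 for Hrc and at most 0.10 for the others. Rescaling with TMM factors or quantile normalization moved the median of all genes by less than 0.1 on the log2 scale.

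The members called at 4 weeks numbered 2, and 4 after quantile normalization, 4 with DESeq2, and 5 both without the 7 Myl7-rich libraries and with the Myl7 covariate. In sham over time the members called numbered 2, and 4 with DESeq2, 1 without the Myl7-rich libraries (Hrc, in place of Trdn and Ryr2), 4 with the covariate and 2 to 4 with 1 library left out. The genes called there, 714, became 157 without the Myl7-rich libraries and ran from 423 to 848 with 1 library left out. In banding over time the genes called were 125, and 64 with no filter, 271 with DESeq2, 50 without the Myl7-rich libraries, 349 with the covariate, and 38 to 150 with 1 library left out. For the difference between banding effects the genes called were 3, and 5 with TMM factors, 6 after quantile normalization, 89 with DESeq2, 192 with the covariate and 2 to 23 with 1 library left out, and the members called were 0, and 1 with the covariate. The causes were not tested.

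Directions of small, uncalled differences turned. After quantile normalization Casq2 had 0.087 in banding over time, −0.022 in sham over time and 0.11 for the difference between effects, and its banding effects were 0.09 at 4 weeks and 0.20 at 8 weeks, the second called (limma, adjusted p = 0.0450). In banding over time Atp2a2 had 0.027 with the replicate block and 0.022 with the covariate, and Jph2 had 0.013 with the replicate block. With 1 library left out, values in banding over time ran from −0.15 to 0.069 for Atp2a2, from −0.046 to 0.047 for Casq2, from −0.083 to 0.081 for Jph2 and from −0.014 to 0.30 for S100a1. Banding against sham at 8 weeks ran from −0.067 to 0.074 for Ryr2 and from −0.054 to 0.011 for Jph2. The difference between effects ran from −0.23 to 0.078 for S100a1, and the log2 ratio of Casq2 to Ryr2 at 4 weeks from −0.027 to 0.045.

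Same-numbered libraries did not clearly deviate together (27 pairs, median correlation 0.02, 7 above 0.1). Differently numbered libraries had 108 pairs, with a median of −0.007 and 23 above 0.1. The number was thus not taken as a pairing. With the replicate block 3 members were called at 4 weeks, 5 at 8 weeks, 0 in banding over time, 3 in sham over time and 0 for the difference between effects, and the genes called were 2068, 3402, 116, 721 and 3. In same-numbered pairs the log2 ratio of Pln to Atp2a2 differed by 0.59 at 4 weeks and 0.30 at 8 weeks, and that of Casq2 to Ryr2 by 0.01 and 0.14.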

Other observations

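Genes of the wider list outside the naming rule, chosen after their values were seen, were also called. Of 5 mitochondrial calcium genes tested, Micu2, a gatekeeper of the uniporter, rose by 0.20 ± 0.07 on the log2 scale at 4 weeks, and Micu3, its relative, fell by 0.41 ± 0.15 at 8 weeks (limma). The first was not called by edgeR, and the second by neither edgeR nor DESeq2. Cacna1c, the pore of the L-type channel that triggers release, fell by 0.33 ± 0.11 at 8 weeks, and Atp2b4, a calcium pump of the surface membrane, rose by 0.52 ± 0.17. Calm3, a calmodulin gene, fell by 0.35 ± 0.10 at 8 weeks. In sham ventricles from 4 to 8 weeks, Ppp1cb rose by 0.29 ± 0.06 and Ppp1r3a by 0.36 ± 0.06, and Calu fell by 0.34 ± 0.09. In banded ventricles limma, edgeR and DESeq2 called 0 of the 57 over time, and in limma 6 were higher and 7 lower at an unadjusted p under 0.05.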
